A study of Mus musculus with 2 samples.

Results

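The hairpins Mir192, Mir194-1, Mir194-2 and Mir215 encode miR-192, miR-194 and miR-215, miRNAs that are often described as p53-responsive. They were taken as the 4 genes of these names among 1174 mouse miRNA hairpins of the GENCODE annotation, and a sequenced tag was counted when it matched a hairpin without mismatch. Tags matched 814 of the 1174 hairpins. The 4 hairpins received 29 of the 8580 distinct tags that matched any hairpin, and no tag of theirs matched a hairpin outside the group. They were read 11098 times in DMSO-treated and 12377 times in AICAR-treated cells, or 0.509% and 0.373% of all hairpin reads.

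The small RNA came from J1 cells, a mouse ES cell line. For its real-time PCR, the study kept these cells in serum with LIF, a cytokine that keeps mouse ES cells undifferentiated. It used gelatin-coated plates in several other assays. The cells received 1 mM AICAR, which enters cells and activates the energy sensor AMPK, or an equal volume of its solvent DMSO (0 mM AICAR), and were collected after 24 h. The study asked how AICAR changes the miRNAs of these cells. With 1 library per condition there was no spread between replicates, so the intervals below are 95% intervals for counting error only. A difference between the libraries has no replicate check within the sequencing.

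p53 is a transcription factor that halts the cell cycle or triggers cell death after DNA damage and other stress, and in human cells it can raise the transcription of the miR-192, miR-194 and miR-215 genes. The same miRNAs are best known from the epithelium of the gut and kidney and from liver, where HNF1 and HNF4 transcription factors drive them. A miRNA finds its target mRNAs mainly through its seed, the bases that follow its first base. A shift of the 5′ end therefore changes the seed, while a shift of the 3′ end leaves the seed as it is.

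The genes form 2 clusters, each with a miR-194 copy upstream of a member of the miR-192 seed family (coordinates of GRCm38, all on the plus strand). The chromosome 1 cluster holds Mir194-1 (chr1:185313319-185313385) and Mir215 (chr1:185313581-185313692), which are 195 nt apart. Mir194-1 lies in an intron and Mir215 in an exon of 2010103J01Rik, an antisense lncRNA on the same strand. Both lie opposite an intron of Iars2, which encodes a mitochondrial isoleucyl-tRNA synthetase. The chromosome 19 cluster holds Mir194-2 (chr19:6264643-6264728) and Mir192 (chr19:6264844-6264932), which are 115 nt apart and overlap no annotated gene. The nearest genes are Atg2a, an autophagy gene, 2307 nt to the left of Mir194-2, and the lincRNA Gm14963, 3862 nt to the right of Mir192.

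The mature 5p sequences below are those of RefSeq (GRCm38.p6), which held all 4 hairpins, and the capitals mark the seed (bases 2 to 8). They are shown because miR-192 and miR-215 have to be told apart by few bases.
miR-192-5p: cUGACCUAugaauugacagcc
miR-215-5p: aUGACCUAugauuugacagac
miR-194-5p: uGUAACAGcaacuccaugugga
miR-192-5p and miR-215-5p were identical at 18 of 21 positions. Counted from the 5′ end of miR-192-5p, the differences to miR-215-5p were C1A, A12U and C20A. Among 1679 mature mouse names, UGACCUA was the seed of these 2 miRNAs, and GUAACAG was the seed of miR-194-5p alone. The opposite arms have 4 different seeds.
miR-192-3p: cUGCCAAUuccauaggucacag
miR-215-3p: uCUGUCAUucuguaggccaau
miR-194-1-3p: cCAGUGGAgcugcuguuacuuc
miR-194-2-3p: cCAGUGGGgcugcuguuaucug

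Levels are given as RPM (reads scaled to 1000000 clean reads of the library), with the clean reads (18870345 in DMSO and 21091226 in AICAR) as the depth. A single read was worth 0.0530 RPM in DMSO and 0.0474 RPM in AICAR. Hairpin reads made up 11.6% of the clean reads in DMSO and 15.7% in AICAR, so a miRNA with an equal RPM in both libraries took a smaller share of the miRNA reads in AICAR. Reads shorter than 21 nt made up 9.49% of the hairpin reads in DMSO and 3.81% in AICAR.

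miR-192-5p had almost the same level in both libraries. It was read 10966 times in DMSO and 12237 times in AICAR, which gave 581 RPM (570.3 to 592.1) and 580 RPM (569.96 to 590.6). The fold change, AICAR over DMSO, was 0.998 (0.973 to 1.02). It ranked 40 by RPM in DMSO and 42 in AICAR among all miRNA arms, so it is an abundant miRNA of these cells.

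miR-194-5p, which both clusters encode, was read 95 times in DMSO and 108 times in AICAR, or 5.03 RPM (4.07 to 6.15) and 5.12 RPM (4.20 to 6.18). Its fold change was 1.02 (0.765 to 1.35). miR-215-5p was read 30 and 31 times, or 1.59 RPM (1.07 to 2.27) in DMSO and 1.47 RPM (0.999 to 2.09) in AICAR, with a fold change of 0.925 (0.541 to 1.58). For these 2 miRNAs the interval is wide and a change smaller than its bounds was not detectable at this depth. The order miR-192-5p, miR-194-5p, miR-215-5p was the same in both libraries, with intervals that did not overlap between neighbours.

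Of the 508 miRNA arms that reached 1 RPM in either library, 12.0% were at least 2-fold higher in AICAR and 10% at least 2-fold lower. Of the 3 member arms among them, 0 passed 2-fold in either direction. The median fold of the 508 arms was 1.10 (log2 0.13), so on the log2 scale miR-192-5p lay at -0.14, miR-194-5p at -0.11 and miR-215-5p at -0.25 relative to that median. Relative to the median, the fold of miR-192-5p was 0.910 (0.887 to 0.934). These intervals take the median as exact and leave out its own error. That of miR-194-5p was 0.927 (0.697 to 1.23) and that of miR-215-5p 0.842 (0.493 to 1.44), and both intervals include 1. A lower fold than that of miR-192-5p was seen for 217 of the 508 arms. Relative to miRNA reads instead of clean reads, the folds were 0.733 for miR-192-5p, 0.746 for miR-194-5p and 0.679 for miR-215-5p, and the 61 higher and 51 lower arms became 24 and 112.

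**Figure D1:**
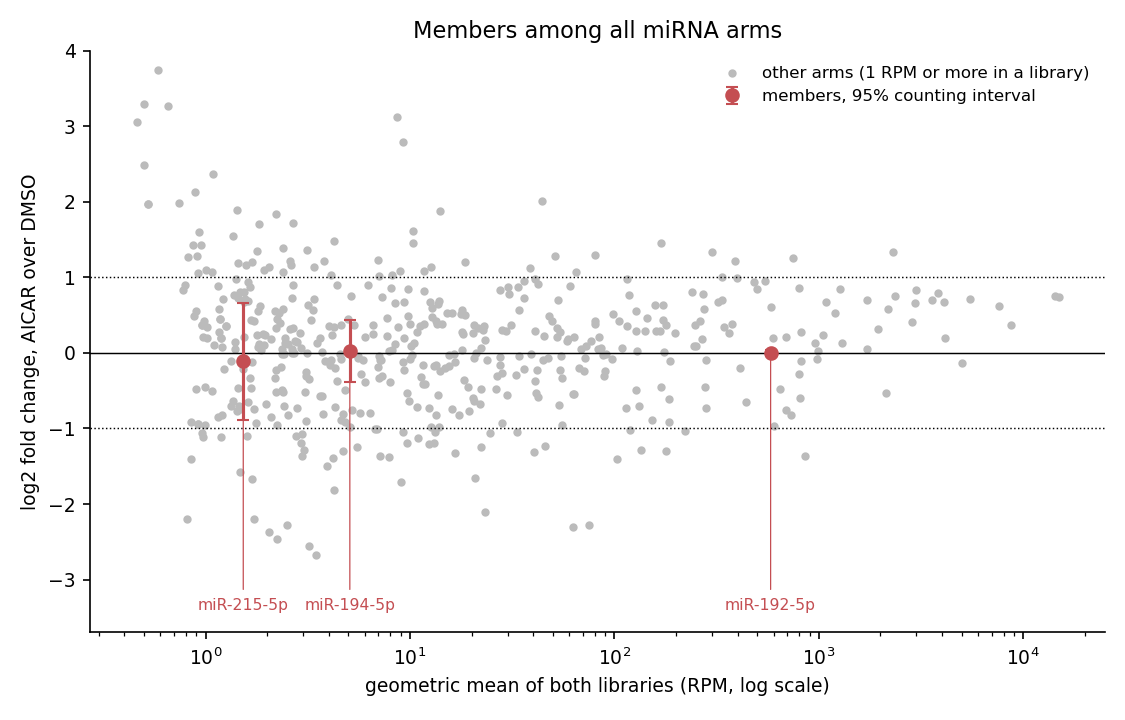
Level (x axis, geometric mean RPM of both libraries, log scale) against the log2 fold change of AICAR over DMSO (y axis) for 505 other miRNA arms (grey) and the 3 member arms (red, bars are 95% counting intervals). The dotted lines mark a 2-fold change, and miR-192-5p at -0.0023, miR-194-5p at 0.02 and miR-215-5p at -0.11 lie between them.

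The miRNA arms with at least 10 RPM whose fold came nearest to that of miR-192-5p were miR-187-3p (0.998, 397 and 443 reads), miR-342-3p (1.00, 3300 and 3703 reads) and miR-199a-3p together with the identical miR-199b-3p (0.989, 1734 and 1917 reads). This likeness rests on 2 libraries.

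The reads came almost entirely from the chromosome 19 cluster. Tags specific to its 2 hairpins were read 11053 times in DMSO and 12332 times in AICAR (585.7 and 584.7 RPM), with a fold change of 0.998 (0.973 to 1.02). Tags specific to the chromosome 1 cluster were read 30 and 31 times, all of them on Mir215, with a fold change of 0.925 (0.541 to 1.58). The chromosome 19 cluster exceeded the chromosome 1 cluster 368-fold in DMSO and 398-fold in AICAR. Of the miR-192-5p and miR-215-5p reads together, miR-192-5p supplied 99.73% in DMSO (99.61 to 99.81) and 99.75% in AICAR (99.64 to 99.82). These shares count miR-192-5p reads with any 5′ end. With the RefSeq 5′ end, and so the shared seed UGACCUA, miR-192-5p had 8390 and 9884 reads, against 30 and 31 of miR-215-5p. Although Mir194-2 and Mir192 are neighbours, miR-192-5p was read 115 times as often as miR-194-5p in DMSO and 113 times as often in AICAR. These ratios compare reads of different sequences and are not ratios of molecules.

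The 2 Mir194 hairpins give the same mature miRNA in the annotation, but they differ directly after its last base. The stretches below are shown because a tag that runs past the mature end can tell the copies apart (capitals, bases after the RefSeq mature end).
Mir194-1: uguaacagcaacuccauguggaCUGUGC
Mir194-2: uguaacagcaacuccauguggaAGUGCC
The most abundant miR-194-5p tag was the 23-nt form that reads on into Mir194-2 (tGTAACAGcaactccatgtggaa, tags are written as DNA with the seed in capitals). It was read 77 times in DMSO and 94 times in AICAR, which was 81.1% (72.0 to 87.7) and 87.0% (79.4 to 92.1) of the miR-194-5p reads. The matching 23-nt form of Mir194-1 was read 0 times in both libraries, and 0 reads allow up to 0.195 RPM in DMSO and 0.175 RPM in AICAR. The 22-nt form that both copies share was read 13 and 12 times, and a 21-nt form 2 times in each. A 22-nt product of either copy with an added A would have the same sequence as the 23-nt Mir194-2 form, so such products cannot be told apart. No tag was specific to Mir194-1.

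The opposite arms were at or near the limit of detection. miR-192-3p was read 3 times in DMSO and 0 times in AICAR. All 3 reads were the 23-nt tag gGCTGCCAattccataggtcaca, which starts upstream of the RefSeq 5′ end and so has another seed than the RefSeq sequence. miR-194-2-3p was read 4 times in DMSO (0.212 RPM, 0.0578 to 0.543) and 0 times in AICAR (0 to 0.175 RPM), intervals that overlap. Its reads were all the 21-nt tag cCAGTGGGgctgctgttatct, which has the RefSeq 5′ end. The 3p arms of Mir194-1 and Mir215 were read 0 times in both libraries. In the loop of Mir192, which follows its 5p arm, 1 read was found in AICAR. Nearly all reads of the 4 hairpins thus lay on the 5p arm, as the plot of reads along the hairpins shows.

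**Figure D2:**
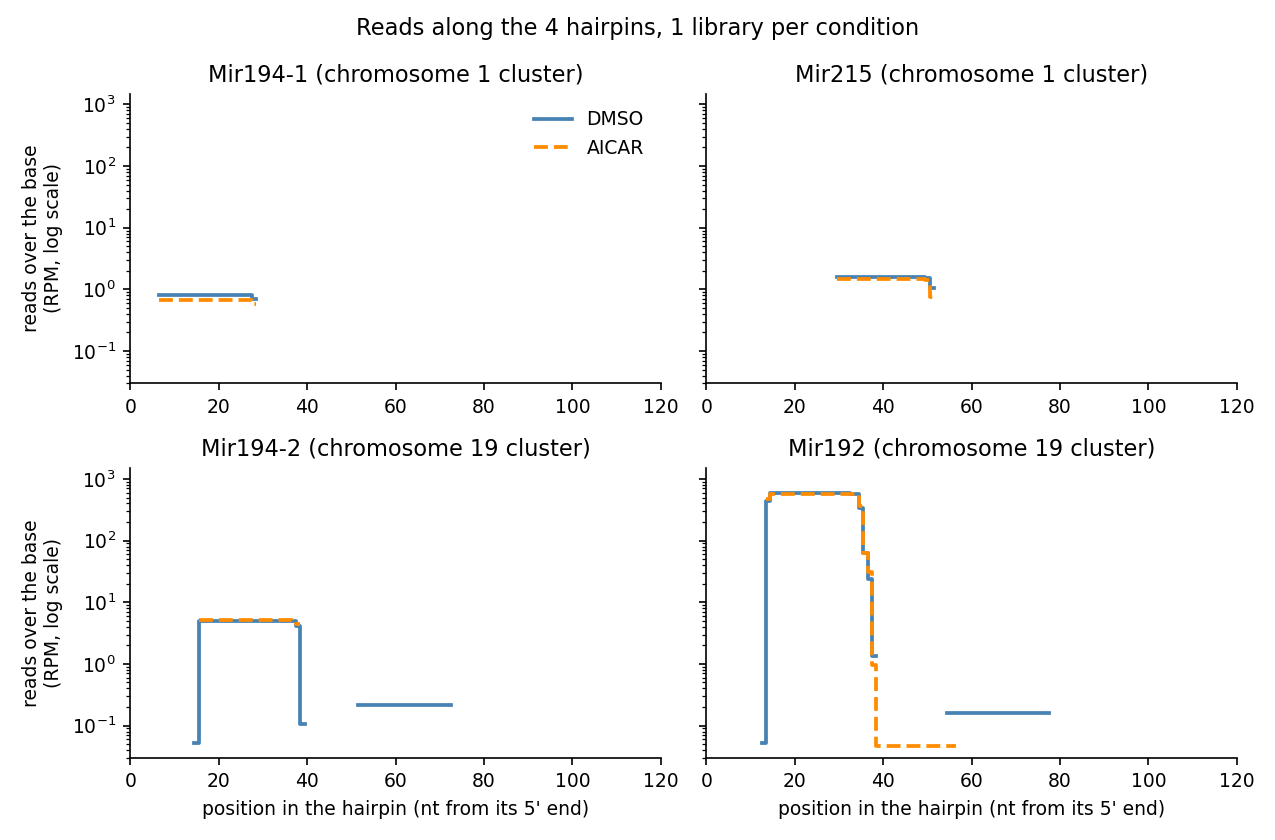
Reads over each base (RPM, log scale, y axis) against the position in the hairpin in nt (x axis) for the 4 hairpins in DMSO (solid) and AICAR (dashed), with bases at 0 not drawn. Nearly all coverage sits on the 5p arm of each hairpin, at 581 and 580 RPM for miR-192-5p, and the coverage of Mir194-1 comes from the 15 and 14 reads it shares with Mir194-2.

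The end variants of miR-192-5p differed between the libraries although its total level was nearly equal. The most abundant tags were these, with the seed in capitals.
22 nt: cTGACCTAtgaattgacagcca
21 nt: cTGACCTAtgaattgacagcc
21 nt, 1 base later: tGACCTATgaattgacagcca
22 nt, 1 base later: tGACCTATgaattgacagccag
23 nt, 1 base later: tGACCTATgaattgacagccagt
The 22-nt form with the RefSeq 5′ end was read 3932 times in DMSO and 5198 times in AICAR, a fold change of 1.18 (1.13 to 1.23). The 21-nt form, which is the RefSeq sequence, was read 3914 and 4088 times, a fold change of 0.934 (0.894 to 0.977). The 2 forms were thus equally frequent in DMSO, at 35.9% and 35.7% of the miR-192-5p reads, whereas in AICAR the longer one held 42.5% and the shorter one 33.4%. The last base of the 22-nt form is the A of the hairpin, and an A added to the 21-nt form would look the same.

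A later 5′ end, which moves the seed from UGACCUA to GACCUAU, was found in 2572 reads in DMSO and 2348 in AICAR. This was 23.5% (22.7 to 24.3) and 19.2% (18.5 to 19.9) of the miR-192-5p reads, a fold change in RPM of 0.817 (0.772 to 0.864). Reads with the RefSeq 5′ end rose from 76.5% to 80.8%, with a fold change of 1.05 (1.02 to 1.09). None of the 1679 mature mouse names has GACCUAU as its seed. Any other 5′ end was found in 4 reads in DMSO and 5 in AICAR. miR-215-5p had 0 reads with a shifted 5′ end, and miR-194-5p had 1 read, in DMSO.

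The 3′ end went with the 5′ end. Reads that ended beyond the 22-nt form made up 2.04% of those with the RefSeq 5′ end in DMSO and 2.33% in AICAR. Among reads that started 1 base later, they made up 39.7% (37.9 to 41.6) and 47.7% (45.7 to 49.7). Of the late-starting tags, the 21-nt form was read 1294 and 1018 times, a fold change of 0.704 (0.648 to 0.765). The 22-nt form was read 633 and 554 times (0.783, 0.697 to 0.879), whereas the 23-nt form was read 369 and 549 times (1.33, 1.16 to 1.52). The late-starting group as a whole was lower in AICAR, and its 23-nt member was higher. Of the scarcer tags with the RefSeq 5′ end, the 20-nt form was read 363 and 361 times, the 23-nt form 118 and 149 times, the 24-nt form 48 and 79 times and the 19-nt form 9 and 7 times. Those that started 1 base later were read 221 and 200 times at 20 nt, 30 and 10 times at 19 nt, and 20 and 17 times at 24 nt. The largest fall among these was that of the late-starting 19-nt form, with a fold change of 0.298 (0.130 to 0.627).

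By length, 21-nt reads fell from 47.5% to 41.7% of the miR-192-5p reads, 22-nt reads rose from 41.6% to 47.0%, and 23-nt reads rose from 4.44% to 5.70%. Reads under 21 nt made up 5.75% (5.33 to 6.21) in DMSO and 4.76% (4.40 to 5.16) in AICAR. A lower share of short reads was general in the AICAR library. Of 125 arms with at least 1000 reads in each library, 114 had a lower share under 21 nt in AICAR, and the median share went from 3.29% to 1.44%. Its part in the length shift of miR-192-5p was not tested.

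**Figure D3:**
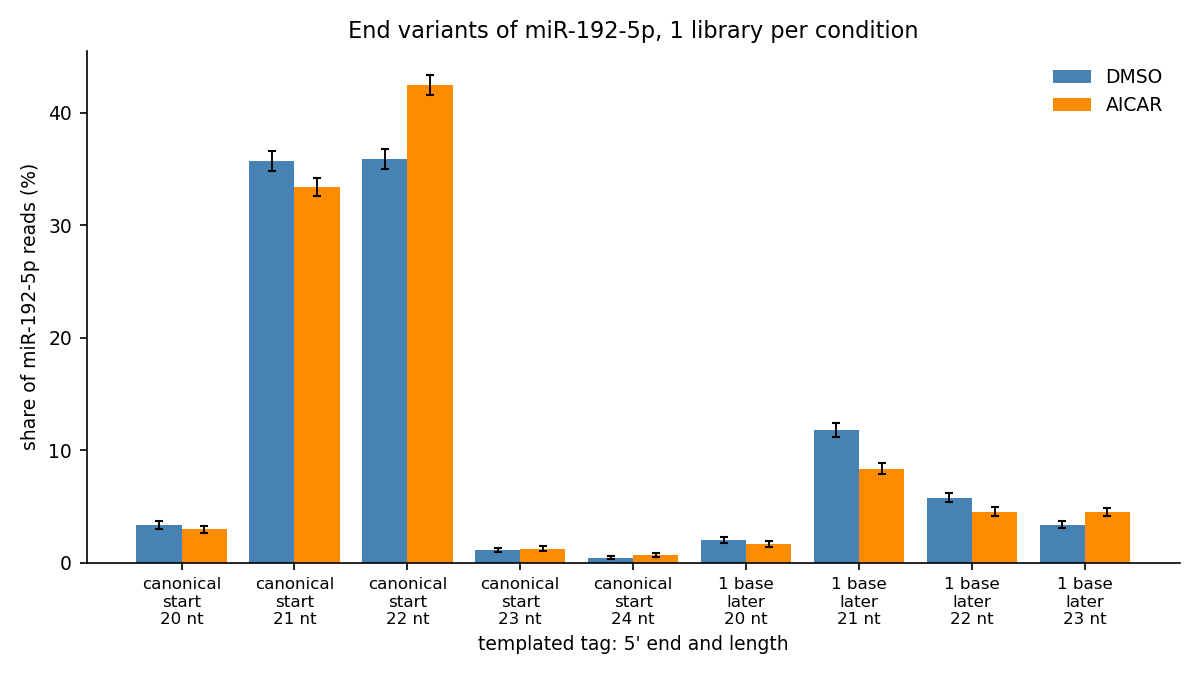
Share of the miR-192-5p reads (%, y axis) held by each templated tag with at least 100 reads over both libraries, by 5′ end and length (x axis), in DMSO (blue) and AICAR (orange), with 95% Wilson intervals. The 22-nt form with the RefSeq (canonical) start goes from 35.9% to 42.5%, and the 21-nt form that starts 1 base later from 11.8% to 8.32%.

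The reference tag, the most-read tag of an arm over both libraries, was 1 nt longer at the 3′ end than the RefSeq sequence for all 3 member 5p arms. Of 366 arms whose reference tag shared its 5′ end with RefSeq, 53 (14.5%) ran 1 nt longer and 229 (62.6%) had the same 3′ end. For miR-215-5p the 22-nt tag (aTGACCTAtgatttgacagacc) was read 20 times in DMSO and 16 times in AICAR, and the 21-nt RefSeq form 9 and 14 times. The share of the 22-nt tag was 66.7% (48.8 to 80.8) and 51.6% (34.8 to 68.0), intervals that overlap.

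miRNA ends can also carry bases that the hairpin does not encode, which terminal nucleotidyl transferases add. For miR-192-5p, tags with 1 to 3 such bases at the 3′ end made up 6.55% (6.11 to 7.01) of templated and tailed reads in DMSO and 10.1% (9.61 to 10.6) in AICAR. Most of the difference lay in U tails (T in the tags), which were read 433 and 921 times. Their share rose from 3.69% (3.36 to 4.05) to 6.77% (6.36 to 7.20), a fold change in RPM of 1.90 (1.70 to 2.14). A tails were read 252 and 349 times, 2.15% and 2.56%, with a fold change of 1.24 (1.05 to 1.46). Other tails were read 83 and 106 times.

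The largest tailed form was the 22-nt tag with 1 added base, shown in capitals.
U tail: ctgacctatgaattgacagccaT
A tail: ctgacctatgaattgacagccaA
The U-tailed form was read 262 times in DMSO and 642 times in AICAR, a fold change of 2.19 (1.90 to 2.54), against 1.18 for the same tag without the tail. The A-tailed form was read 71 and 133 times (1.68, 1.25 to 2.27). The A-tailed tag with the most reads in DMSO was another one, the late-starting 22-nt tag with 1 added A, which was read 99 and 90 times (0.813, 0.605 to 1.09). A tails made up 1.22% (1.02 to 1.47) and 1.74% (1.51 to 2.00) of the reads with the RefSeq 5′ end, and 5.03% (4.28 to 5.90) and 5.97% (5.13 to 6.94) of those that started 1 base later. The 22-nt tag with the RefSeq 5′ end and 2 added U was read 9 and 33 times (3.28, 1.54 to 7.80). Among reads with the RefSeq 5′ end, U tails went from 3.90% (3.51 to 4.32) to 7.37% (6.90 to 7.88). Among reads that started 1 base later they were at 3.05% (2.47 to 3.75) in DMSO and 4.27% (3.56 to 5.11) in AICAR, intervals that overlap. Whether the difference between the libraries depended on the 5′ end was not tested.

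More U tailing was also general in the AICAR library. Of the 125 abundant arms, 101 had a higher share of U tails in AICAR and 22 a lower one, and the median share went from 1.72% to 2.24%. The median ratio of the shares was 1.34, and 15 of 121 arms with a defined ratio were above miR-192-5p. A tails were higher in 89 of the 125 arms and lower in 36. Shifted 5′ ends were less frequent in AICAR for 79 arms and more frequent for 45, and in DMSO 13 of the 125 arms had a larger shifted share than miR-192-5p. The shifted share of miR-192-5p fell by 4.26 percentage points, and 3 of the 125 arms fell by more, namely miR-291b-5p, miR-363-3p and miR-433-3p, named after their values were seen. By the ratio of the shares it stood out less. Its ratio was 0.819 against a median of 0.899, and 69 of 123 arms with a defined ratio were above it.

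**Figure D4:**
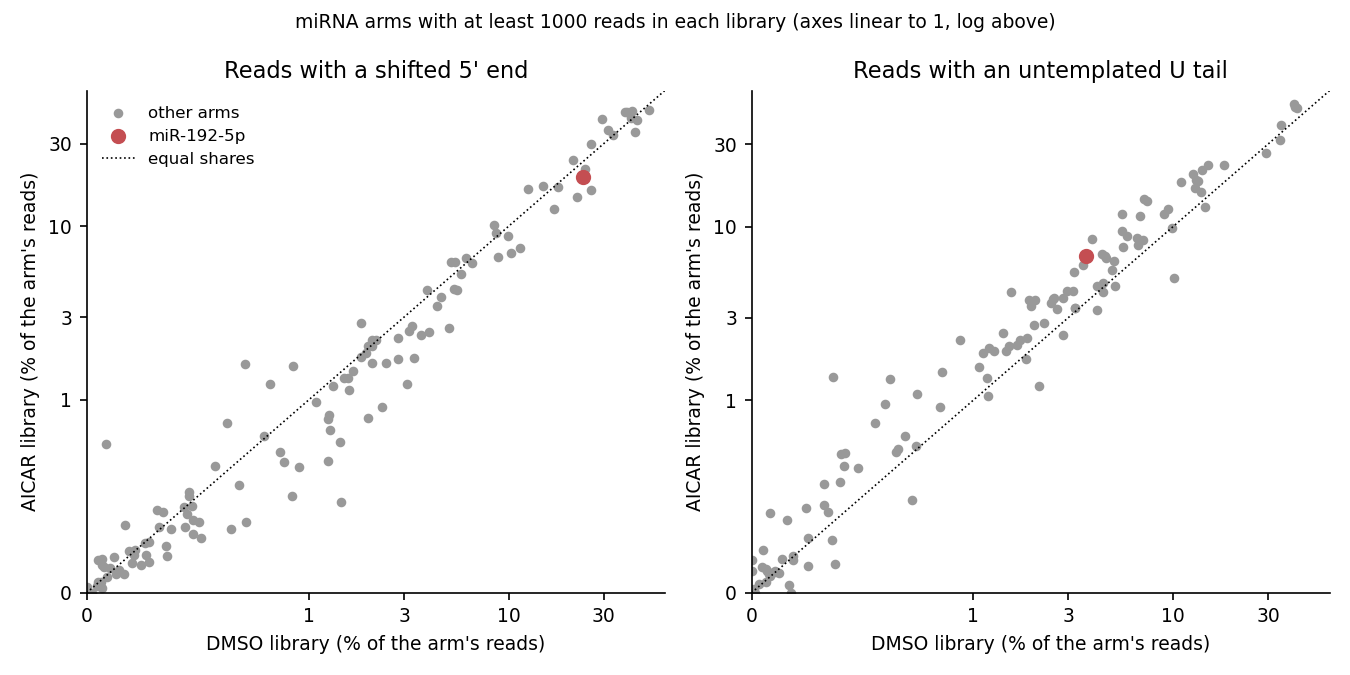
Share of an arm's reads with a shifted 5′ end (left) and with an untemplated U tail (right), in % of the arm's reads in DMSO (x axis) and AICAR (y axis), for 125 miRNA arms with at least 1000 reads in each library. The axes are linear up to 1 and logarithmic above, and miR-192-5p (red) lies below the line of equal shares at left (23.5% and 19.2%) and above it at right (3.69% and 6.77%).

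miR-194-5p carried tails in 24 of 119 reads in DMSO (20.2%, 13.9 to 28.3) and in 17 of 125 in AICAR (13.6%, 8.67 to 20.7). In DMSO this share lay above that of miR-192-5p with no overlap of the intervals, and in AICAR the intervals overlapped. U tails were read 13 and 4 times and A tails 10 and 13 times. miR-215-5p had 2 tailed reads in DMSO and 1 in AICAR.

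Other miRNAs that textbooks and reviews link to p53 were set beside the group. The list had 13 genes, of which Mir605 had no hairpin among those searched, and 17 of its arms reached 1 RPM in either library. Of these, 2 were at least 2-fold higher in AICAR, 1 was at least 2-fold lower and 14 lay between, where 12.0% and 10% of all arms passed these limits. In all 12 had a fold above 1 and 5 below, and the median was 1.37 against 1.10 over all arms. Of all 508 arms, 217 had a fold below the 0.998 of miR-192-5p. Relative to miRNA reads, 1 was at least 2-fold higher and 2 at least 2-fold lower, where 24 and 112 of all 508 arms were. With tags of at least 21 nt alone, 4 of the same 17 arms were higher and 0 lower, where 72 and 33 of all 486 arms were. The 17 arms were not filtered again for this count, so miR-143-5p stayed in below 1 RPM, with 18 and 15 reads. No p53 activity was measured in these libraries. By real-time PCR, the paper reports miR-34a, miR-34b, miR-34c, miR-145 and miR-203 as higher with AICAR. It also reports the mRNA of Trp53, the p53 gene, and of p21 as lower.

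The miR-34 miRNAs, the best known p53 targets, slow the cell cycle. miR-34c-5p was read 8894 times in DMSO and 15154 times in AICAR (471 and 718 RPM), with a fold change of 1.52 (1.48 to 1.57). miR-34a-5p was read 422 and 862 times (1.83, 1.62 to 2.06). The interval of miR-192-5p, which had a level close to that of miR-34c-5p in DMSO, lay below both. miR-34b-5p was read 140 and 249 times (1.59, 1.29 to 1.97), while miR-34a-3p was read 107 and 114 times (0.953, 0.726 to 1.25).

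miR-145a-5p, which represses pluripotency genes, was read 118 and 360 times (2.73, 2.21 to 3.39), and miR-203-3p, a miRNA of differentiating skin, 32 and 83 times (2.32, 1.53 to 3.61). miR-16-5p, which represses cyclins, was read 5319 and 11771 times (1.98, 1.92 to 2.05). Processing of miR-16, miR-143 and miR-145 can be promoted by p53. The passenger arms miR-16-1-3p (0.644, 0.559 to 0.741) and miR-143-5p (0.422, 0.316 to 0.559) had folds below 1. The reference tag of miR-143-5p is only 19 nt long, and with tags of at least 21 nt alone its reads were 18 and 15 and its fold 0.746. miR-107-3p, which lies in the pantothenate kinase gene Pank1, was read 32899 and 45978 times (1.25, 1.23 to 1.27). miR-200c-3p (1.23, 1.08 to 1.41) and miR-141-3p (1.37, 0.740 to 2.58), which mark epithelial cells, share 1 cluster. The remaining arms were miR-34c-3p (1.83), miR-15a-5p (1.65), miR-34b-3p (1.18), miR-143-3p (0.942) and miR-16-2-3p (0.698).

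**Figure D5:**
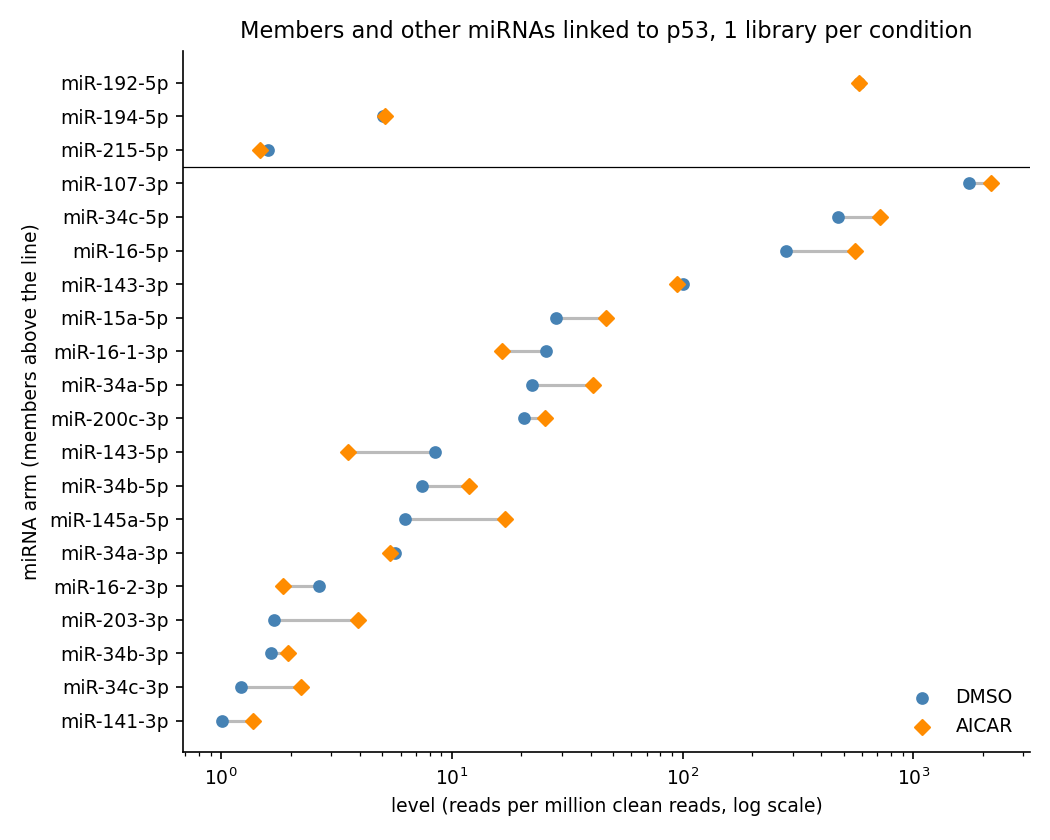
Level in RPM (x axis, log scale) of the 3 member arms (above the line) and of 17 arms of other p53-linked miRNAs (y axis) in DMSO (circles) and AICAR (diamonds). The markers of miR-192-5p coincide at 581 and 580 RPM, whereas those of miR-34c-5p lie at 471 and 718 RPM.

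As a check of the cells, the ES cell miRNAs of the miR-290 and miR-302 genes (9 of 9 with reads) held 28.7% of the miRNA reads in DMSO and 36.5% in AICAR. The 4 tested arms of the miR-302 genes were scarce and had folds between 0.170 (miR-302a-5p, 147 and 28 reads) and 0.992, whereas the miR-290 genes, which supplied nearly all of these reads, had folds between 1.21 and 2.51 for 12 of 12 arms. The lists for liver and for gut and pancreatic endocrine cells held 1 gene each, so they say little about these tissues. Mir122, which marks liver, was read 55 times in DMSO and 536 times in AICAR (2.91 and 25.4 RPM). Mir375, which marks gut and pancreatic endocrine cells, was read 104 and 71 times (5.51 and 3.37 RPM). Of the other lists, muscle (5 of 5 genes with reads) gave 161 and 205 RPM, blood (3 of 4, with Mir223 at 0) 16.0 and 14.3 RPM, and fibroblast and smooth muscle (4 of 5, with Mir214 at 0) 208 and 208 RPM. The part of other cell types in the levels of the group was not tested.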

How the data were processed

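Small RNA of 18 to 30 nt was sequenced from 1 DMSO and 1 AICAR library. The title of the control sample differs from its treatment label, and the label (DMSO) was used. The authors removed low-quality and contaminant reads, collapsed the clean reads into tags, and deposited the read count of each tag without normalization. Some deposited tags are longer than the stated size range. The submitters' notes name the build mm9, and coordinates here are those of GRCm38.

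The members and lists were chosen with earlier results of these data known. Tags were matched without mismatch to GENCODE vM21 hairpins. Matches elsewhere in the genome were not analysed here, so "specific" and "untemplated" are relative to the hairpins. On each arm the most-read tag was the reference, and tags starting within 2 nt and ending within 4 nt of it were counted. Arms with at least 1 RPM were tested for a fold of 2 or 0.5. Every member arm with a read was named, with end variants of at least 10 reads or the top tag. Folds carry exact (Clopper-Pearson) and shares Wilson 95% intervals. PCR reads are not independent molecules. The steps were tested on simulated data. Python 3.11.15, scipy 1.17.1 and edgeR 4.0.16 (TMM only) were used.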

Additional observations from a re-analysis of the deposited data

How the results depend on the processing

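No paired analysis was possible because each condition had 1 library, and no replicate could be left out. For miR-192-5p, the fold of 0.998 became 0.733 relative to miRNA reads, 0.891 with TMM, 0.944 with the median ratio, 1.18 with tags identical to the reference tag, 1.05 with the reference 5′ end, and 1.04 either with 1 mismatch or, in an alternative chosen after seeing the data, with tailed tags added. The chromosome 19 cluster gave 0.733, 0.891, 0.944, 1.18, 1.05 and, with 1 mismatch, 1.04. miR-194-5p became 0.746 relative to miRNA reads. Over all alternatives run, the folds of the 3 member 5p arms and both clusters lay between 0.679 and 1.18. The 61 higher and 51 lower arms became 139 and 119 with no minimum and 23 and 25 with a minimum of 10 RPM. Relative to miRNA reads they became 24 and 112. With tags of at least 21 nt they became 72 and 33, of 486 arms. Counting every tag on the arm gave no separate value for the clusters. The depth limits statements on miR-215-5p and the 3p arms.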
